A study of Mus musculus with 84 samples.

Results

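The comparison set mucosal mast cells that lack the IL-4 receptor alpha chain against WT cells of the same kind. MMC9s are mast cells of the intestinal mucosa that can release large amounts of IL-9. They were isolated from small intestines of BALB/c mice made allergic to ovalbumin (Ova), a hen egg protein. The contrast used 2 of the series' 84 samples, 1 bulk RNA-seq library labelled IL4Ra-/- (loss of function) and 1 labelled WT. Its members were the 6246 of 55471 annotated genes with at least 50 reads in the larger of these libraries. In an adoptive transfer model, Ova-sensitized WT mice received bone marrow progenitors from WT, IL4Ra-/- or IL4RaY709F donors, and then 7 oral Ova challenges at 3 per week. Each library was made from RNA pooled over 12 to 20 biological replicates. All hosts, also those of the IL4Ra-/- cells, were WT mice that keep cells of their own, and the share of host cells among the sorted MMC9s was not given in the sources used here. Nor do these give the gate of the bulk sort. The third bulk library, IL4RaY709F, carries a gain-of-function form of the receptor, and its values are set beside those of IL4Ra-/- where they help. Both mutant libraries are compared with the same WT library, so their ratios to WT are not independent. The other 81 samples are single WT MMC9s from a model with Ova and alum, sorted as ST2+ and c-Kit+ cells that were IL-17RB2- and Lin-, IL-4GFPhigh and β7-integrinlow. No animal is named for those cells, so they count as 1 sample, and they were used only to show which genes WT MMC9s read.

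IL-4Ra is the signalling chain of the receptors for IL-4 and IL-13. It pairs with the common gamma chain or with IL-13Ra1 and works through the kinases JAK1, JAK3 and TYK2, which activate the transcription factor STAT6. The same receptor recruits IRS2, and SOCS1, SOCS3 and CISH are feedback inhibitors of such cytokine receptors. In mast cells IL-4 is known to cooperate with IgE, stem cell factor and IL-33, and the study's title places BATF, an AP-1 family factor, downstream of IL-4.

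Promoter sequences are shown for Socs3, Serpina3f and Serpina3g, which had lower transcript levels in IL4Ra-/- and whose start regions hold letters of the kind STAT factors bind, and for Il9, the cytokine that gives these cells their name. Capitals mark TTCNNNGAA, the spacing typical of STAT3 and STAT5, the same TTC and GAA with 1 base more between them, the spacing that STAT6 prefers, or TGANTCA, an AP-1 motif. Each motif reads the same on both strands, and no marked stretch overlaps another. The windows lie directly before the RefSeq gene start and are written 5′ to 3′ on the gene's strand (RefSeq, build GRCm38.p6).
Socs3 (chr11:117969452-117969616, minus strand): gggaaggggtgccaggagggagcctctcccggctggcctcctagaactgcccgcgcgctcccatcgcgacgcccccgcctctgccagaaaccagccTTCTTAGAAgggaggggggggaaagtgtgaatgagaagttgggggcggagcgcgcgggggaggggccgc
Serpina3g (chr12:104235897-104236146, plus strand): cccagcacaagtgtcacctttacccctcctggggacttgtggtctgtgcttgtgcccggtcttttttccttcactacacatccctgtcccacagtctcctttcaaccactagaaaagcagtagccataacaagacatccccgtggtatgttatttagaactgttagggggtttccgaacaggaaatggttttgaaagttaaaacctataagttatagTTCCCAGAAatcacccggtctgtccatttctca
Serpina3f (chr12:104214294-104214543, plus strand): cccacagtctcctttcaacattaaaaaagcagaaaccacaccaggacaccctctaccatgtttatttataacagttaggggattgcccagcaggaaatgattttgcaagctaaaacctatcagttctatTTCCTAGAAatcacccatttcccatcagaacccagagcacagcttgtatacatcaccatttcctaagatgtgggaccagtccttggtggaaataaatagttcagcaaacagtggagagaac
Il9 (chr13:56482258-56482507, minus strand): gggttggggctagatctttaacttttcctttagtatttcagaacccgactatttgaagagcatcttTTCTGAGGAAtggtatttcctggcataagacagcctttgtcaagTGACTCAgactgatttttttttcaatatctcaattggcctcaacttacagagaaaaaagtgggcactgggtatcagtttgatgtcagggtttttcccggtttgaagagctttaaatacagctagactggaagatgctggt
The TTCNNNGAA match began 154 bases before the RefSeq start in Socs3, 33 in Serpina3g and 121 in Serpina3f. In Il9 the STAT6-type letters began 184 bases before the start and TGACTCA 140 bases before it. For Socs3 the bases nearest the start lie in an annotated exon and are left out, which leaves 165. Of 57 lower genes read in 10% or more of WT cells, 42 had a window of 250 bases in the table. Among these, 4 (9.524%; the fourth is Rab10os) held TTCNNNGAA, against 7.056% of 27025 promoters in all, 5.572% of 4935 windows of measured genes and 13.89% of 36 windows of higher genes with the same limit on cells. The STAT6-type spacing was in 1 of the 42, Notch1 (2.381%), in 5.913% of all promoters, in 4.296% of the measured and in 8.333% of the 36. TGANTCA was in 0 of the 42, in 6.838% of all promoters, in 4.032% of the measured and in 5.556% of the 36. The matches are letters in a window and not sites, and the windows of Il4ra, Batf, Nfil3, Socs1 and Pim2 held none of the motifs.

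The WT library held 2299793 reads in genes and the IL4Ra-/- library 2330628, with 2521791 in IL4RaY709F. Values are reads, or reads scaled to library size with TMM factors (CPM), and differences are log2 ratios of IL4Ra-/- to WT unless another ratio is named. There was 1 library per genotype, so no test between genotypes could be made and each ratio has an exact 95% interval for counting error only. Genes of 200 to under 1000 reads had a robust SD of 0.33 in their log2 ratios, where counting alone gives 0.12. With 1 library per genotype, differences between pools and between genotypes cannot be told apart in that spread. A gene is called higher or lower where the ratio was at least 2-fold and its interval excluded a ratio of 1. Of 6246 genes, 152 (2.43%) were called higher and 81 (1.3%) lower, together 3.73%, and the median log2 ratio was -0.08. For IL4RaY709F against WT, 100 of 5964 genes (1.68%) were called higher and 46 (0.771%) lower. Scaling by total reads moves every ratio up by 0.13 and gives 207 higher and 45 lower genes. The share called was 6.57% of genes at 50 to under 100 reads, 3.50% at 100 to under 200, 1.60% at 200 to under 1000 and 2.14% at 1000 or more. At the edge of the rule, 132 genes lay at 1.8 to under 2-fold and 75 at 2 to 2.2-fold.

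**Figure D1:**
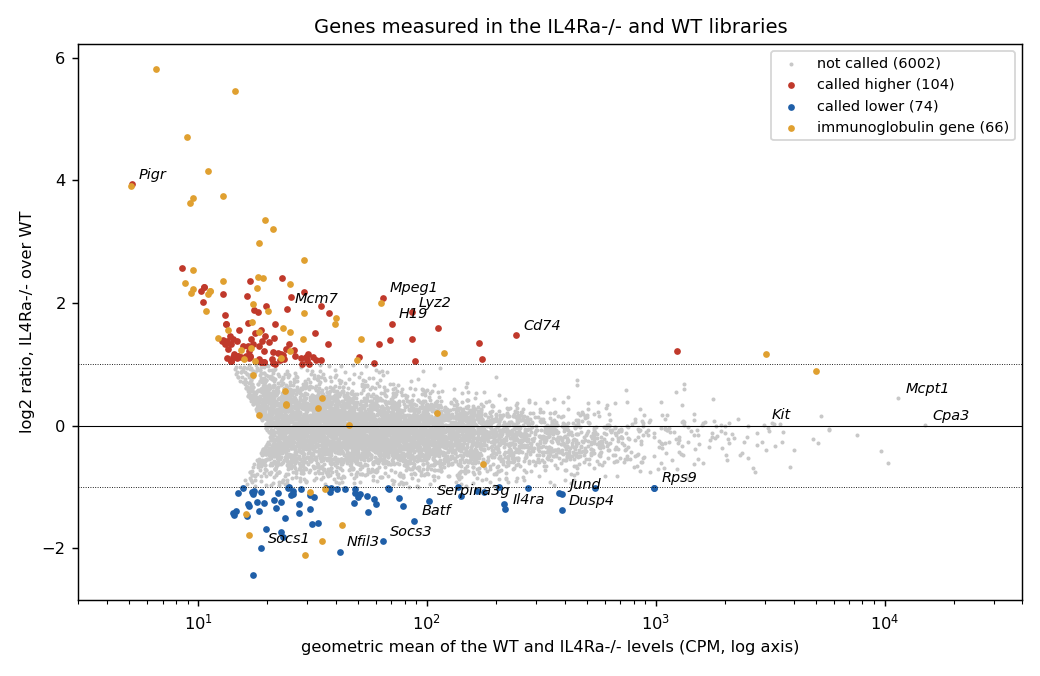
Log2 ratio of IL4Ra-/- to WT (vertical axis) against the geometric mean level in CPM (horizontal log axis) for the 6246 measured genes, 1 point per gene. Dotted lines mark 2-fold; the higher genes sit mostly at low levels, while Kit, Cpa3 and Mcpt1 at the right lie within 2-fold.

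Transcripts of the receptor gene Il4ra and of the feedback inhibitors Socs1 and Socs3 were lower in the IL4Ra-/- library. Il4ra (ENSMUSG00000030748, chr7:125552120-125579474, plus strand) had 806 reads in WT, 350 in IL4Ra-/- and 1831 in IL4RaY709F. Its level was lowest in IL4Ra-/-, 2.56-fold below WT (2.26 to 2.91), in the direction of the label. The counts cover the whole gene, and the sources used here do not say which exons the null allele lacks. Residual reads can therefore not be assigned to the allele, to exons outside the deletion or to host cells. In bulk, fewer cells of a kind and less RNA per cell cannot be told apart. Of the 4 nearest protein-coding genes on each side, 3 reached the read minimum and none of these was called. Nsmce1, a subunit of the SMC5/6 complex, had 70 and 66 reads in WT and IL4Ra-/-, and Gtf3c1, a subunit of TFIIIC, had 187 and 220. D430042O09Rik, the third of them, had 54 and 77. The other 5 were too weakly read to be called, with Kdm8 at 3 and 6 reads, Gsg1l at 12 and 8, and Il21r, Zkscan2 and Hs3st4 at 0 in both libraries.

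Of 19 measured genes for IL-4 and IL-13 receptor chains, JAKs and STATs, 18 lay below 0 and 1 above, with a median of -0.43, and Il4ra was the 1 called. Over all measured genes 3626 lay below 0 and 2620 above. These members are abundant, and genes at 1000 reads or more had a median of -0.24 and those at 200 to under 1000 reads one of -0.14. Jak2 had 2508 reads in WT and 1678 in IL4Ra-/- (log2 -0.73) and Jak1 2433 and 1804 (-0.59). Stat5a stood at -0.73, Stat4 at -0.60 and Stat6 at -0.41 (938 and 783 reads). The common gamma chain gene Il2rg stood at -0.46 and Irs2 at -0.65. Ptpn2, a phosphatase that acts on JAKs and STATs, was the member above 0 (0.23).

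Among 7 measured SOCS genes 2 (28.6%) were called lower, against 1.3% of all measured genes, and the list median was -0.61. Socs1 had 86 reads in WT, 24 in IL4Ra-/- and 235 in IL4RaY709F. Socs3 had 281, 85 and 648 reads in the same order, so for both genes IL4Ra-/- was the lowest of the 3 libraries and IL4RaY709F the highest. Few WT cells read them at 10 reads or more, 3 of 80 for Socs1 and 8 of 80 for Socs3. Cish, a target gene of STAT5, was short of the rule (1248 and 755 reads, log2 -0.88). The members Socs2 (-0.14) and Socs4 (0.19) lay near the median of all genes or above it.

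AP-1 and IRF factors lay mostly below 0, with Nfil3, Batf and Jund called lower. Of 21 measured, 19 lay below 0 and the median was -0.40. Called lower were 3 (14.3%) and higher 1 (4.76%), against 1.3% and 2.43% of all measured genes. For comparison, all genes at 200 to under 1000 reads had a median of -0.14 and those at 1000 or more one of -0.24. Nfil3, a basic leucine zipper repressor known from type 2 immunity, had 194 reads in WT, 52 in IL4Ra-/- and 462 in IL4RaY709F. Batf had 344, 131 and 1061 reads, and 51 of 80 WT cells read it, so it is a gene of many MMC9s. JunD and JunB are partners BATF can dimerize with: Jund fell from 1313 to 674 reads (log2 -1.12), which total-read scaling brings to -0.98, and Junb was at -0.68 (7703 and 5345 reads). Irf4, the factor that binds composite sites with BATF, was at -0.52 (215 and 167 reads). Fos (-0.11), near the median of all genes, and Fosl2 (0.17) stood higher.

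Other inducible transcription factors lay on both sides of 0. NF-kB genes were below 0 in 15 of 17 cases (median -0.51). Among all genes at 1000 reads or more, 329 of 420 were below 0 (median -0.24). Bcl3, an IkB family coactivator, was called lower (132 and 72 reads), but its log2 ratio of -1.03 becomes -0.89 with total-read scaling. The subunits Rela (-0.77), Relb (-0.62), Nfkb1 (-0.56) and Nfkb2 (-0.56) were short of the rule, and the inhibitor gene Nfkbiz was at -0.04 with 7166 and 7760 reads. Of 18 immediate early factors none was called (median -0.21). Egr1 (4597 and 5112 reads) and Nr4a1 (7414 and 8393 reads) were level at 0.00 and 0.02. Egr3 (0.59), Nr4a2 (0.67) and Nr4a3 (0.68), which calcium and antigen receptor signals induce, stood above 0, while Ier5 (-0.76), Ier2 (-0.60) and Ier3 (-0.55) stood below.

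**Figure D2:**
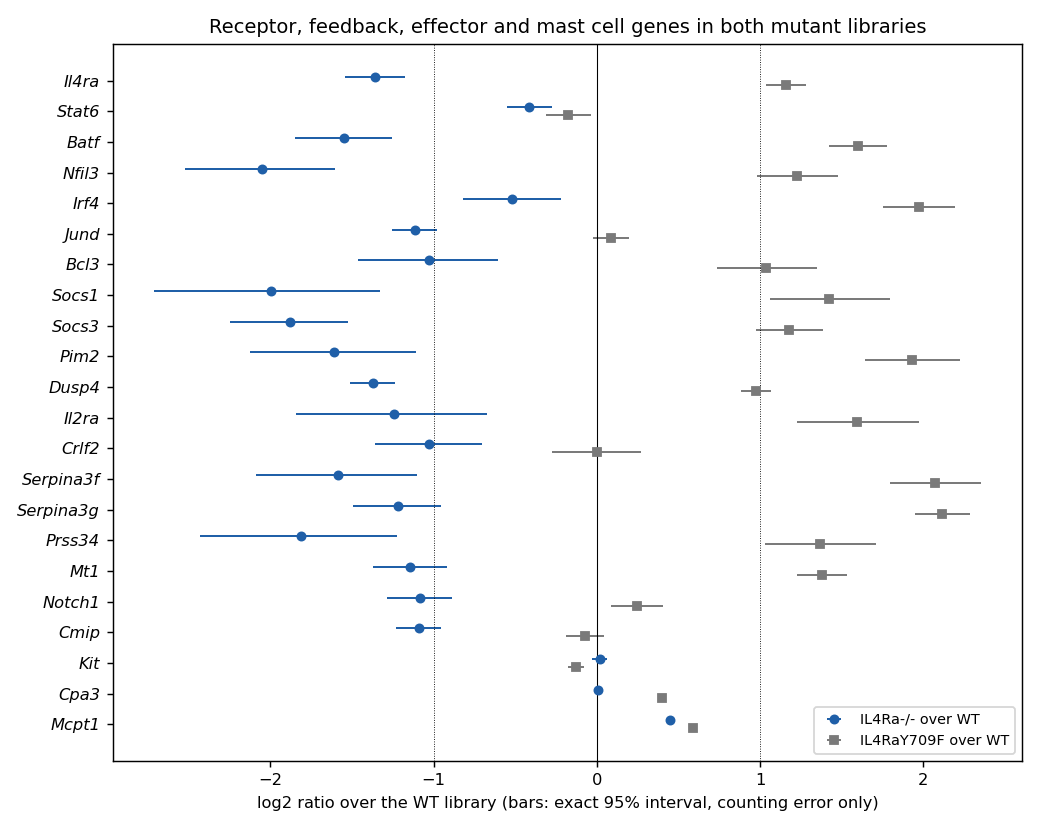
Log2 ratios over the WT library for IL4Ra-/- (circles) and IL4RaY709F (squares), 1 row per gene, with exact 95% intervals for counting error and dotted lines at 2-fold. Batf, Nfil3, Socs1, Socs3, Pim2 and both Serpina3 genes lie left of 0 in IL4Ra-/- and right of 0 in IL4RaY709F, while Jund, Crlf2, Notch1 and Cmip lie left in IL4Ra-/- and close to 0 in IL4RaY709F (0.09, 0.00, 0.25 and -0.07). Both ratios share the WT library.

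Survival, MAP kinase and receptor genes were also among the lower ones. Pim2, a survival kinase gene, had 126 reads in WT, 46 in IL4Ra-/- and 488 in IL4RaY709F (log2 -1.61 in IL4Ra-/-, -2.13 to -1.11). Its paralogs Pim3 (-0.96) and Pim1 (-0.59) were short of the rule, and Bcl2 was at -0.15. Dusp4, a nuclear phosphatase of MAP kinases, had 1430, 614 and 2860 reads. IL4Ra-/- was the lowest of the 3 libraries for Dusp4, by 2.36 to 2.85-fold against WT, and IL4RaY709F the highest. Other regulators of the class gave Dusp6 at -0.63, Dusp1 at -0.05 and the feedback inhibitor Spry2 at 0.00, and the list as a whole had a median of -0.04, or 0.09 with total-read scaling. Rasa3, a RAS GTPase-activating protein gene, had 95 and 211 reads and lay just short of 2-fold higher.

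Of 20 measured cytokine receptor genes 2 (10%) were called lower, against 1.3% of all measured genes, and none higher. Il2ra, the high-affinity chain of the IL-2 receptor, had 81 reads in WT, 38 in IL4Ra-/- and 249 in IL4RaY709F. Crlf2, the receptor chain for TSLP, an epithelial alarmin, had 224, 122 and 228 reads. The pair differed in the third library, where Il2ra was at a log2 ratio of 1.59 to WT and Crlf2 at 0.00. Crlf2 lies at the edge of the rule and reaches -0.90 with total-read scaling. Il9r, the receptor for IL-9, was at -0.78 and the IL-33 receptor gene Il1rl1 at -0.40 (7966 and 6711 reads). Kit was at 0.02 with 6769 and 7625 reads.

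The serine protease inhibitor genes whose promoters are printed above were both lower. Serpina3f had 132 reads in WT, 49 in IL4Ra-/- and 564 in IL4RaY709F, and Serpina3g had 358, 171 and 1581. IL4Ra-/- was the lowest and IL4RaY709F the highest library for each. These genes are neighbours with similar sequence, and how reads that fit several copies were assigned is not given, so their split is uncertain. Of the 7 measured serpins the other members ran from -0.15 (Serpinb1a) to 0.85 (Serpinb6b). Mt1, a metallothionein that binds zinc, had 481, 242 and 1273 reads and was read in 69 of 80 WT cells. Ldlrad4, a negative regulator of TGF-beta signalling, had 62, 25 and 132 reads.

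IL4RaY709F values near or below those of WT were common among the lower genes. The 81 lower genes had a median log2 ratio of IL4RaY709F to WT of 0.045, against 0.003 for all measured genes. The opposite directions in the 2 mutant libraries, given for several genes above, thus do not describe the set as a whole. Notch1, a receptor of cell fate decisions, had 593 reads in WT, 311 in IL4Ra-/- and 716 in IL4RaY709F. Cmip, an adaptor gene, had 1261, 659 and 1221 reads. Dyrk3, a kinase that dissolves condensates in mitosis, had 284, 127 and 202 reads, so it was below WT in both mutant libraries. Slc41a3, a magnesium transporter family gene chosen after its values were seen, had 894, 495 and 684 reads and lay just past 2-fold (-1.01). Notch1 and Cmip lose the call with total-read scaling, at -0.95 and -0.96. Tbc1d10a, a Rab GTPase-activating protein gene, had 214, 98 and 254 reads. In contrast to these, Rnf180, a ubiquitin ligase gene, was lower in IL4Ra-/- and higher in IL4RaY709F (204, 99 and 431 reads), and Aopep, an aminopeptidase gene, had 260, 128 and 436.

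Ribosomal protein genes lay below the other genes in IL4Ra-/-, though few reached 2-fold. Of 75 measured, 71 lay below 0, the median was -0.49, and 4 were called lower (Rpl35a, Rpl39, Rplp1 and Rps9). That is 5.33% of the list, against 1.3% of all measured genes. Rps9 had 3198 reads in WT, 1767 in IL4Ra-/- and 4027 in IL4RaY709F, and Rplp1 had 3171, 1752 and 4134. Both sat at a log2 ratio of -1.01, short of 2-fold with total-read scaling (-0.88) and with DESeq2 size factors (-0.99), and Rpl39 (-1.06) was short with total-read scaling (-0.92). The reads of all 84 list genes added up to 55625 in WT and 43505 in IL4Ra-/-, a ratio of 0.703 (0.694 to 0.712). In IL4RaY709F the same list had a median log2 ratio of 0.26. Fau, which encodes ribosomal protein eS30 joined to a ubiquitin-like protein and was not on the list, had 769 reads in WT, 354 in IL4Ra-/- and 856 in IL4RaY709F.

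Medians by exon length were set beside these. Under 1000 bases, 175 other genes had a median of -0.01 and 10 ribosomal protein genes one of -0.77. Those 175 include the 58 measured immunoglobulin V genes, whose exons are short and whose own median was 1.72. The -0.01 is therefore not the median of short genes outside the immunoglobulin genes, which was not computed. Genes with 1000 to under 2000 bases of exons had a median of -0.20 without the ribosomal protein genes, and the 31 ribosomal protein genes of that length had -0.47. In the class of 2000 to under 4000 bases the medians were -0.12 and -0.43. Processed pseudogenes, many of them copies of such genes, lay below 0 in 37 of 54 and 5 were called lower, led by Rpl38-ps2 (92 and 19 reads, log2 -2.43). Reads of a gene and its copies may be exchanged in counting, so single members are uncertain. The part of transcript length and of the counting in the shift was not tested.

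Other housekeeping groups showed smaller shifts. Of 57 nuclear genes for oxidative phosphorylation 45 lay below 0 (median -0.23) and Ndufa6, a complex I subunit, was called lower (171 and 85 reads). That 1 call is 1.75% of the list, close to the 1.3% of all measured genes called lower. The 9 mitochondrially encoded messages and the 30 proteasome genes had no call and medians of -0.09 each, which turn to 0.04 and 0.05 with total-read scaling. Gapdh was called lower at low counts (80 and 35 reads) among 25 genes of glycolysis whose median was -0.08, or 0.06 with total-read scaling. Gapdh has many processed copies, so its value is uncertain. MHC class I genes were not called, but H2-K1 (-0.69), H2-T23 (-0.65) and H2-D1 (-0.58) lay below B2m (-0.07), the shared light chain.

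The mast cell identity of the IL4Ra-/- library was within 2-fold of WT. Of 19 measured mast cell markers none was called, 8 lay above 0 and 11 below, and the median was -0.06, or 0.08 with total-read scaling. Cpa3, the mast cell carboxypeptidase, had 34193 reads in WT and 38262 in IL4Ra-/-. Mcpt1 and Mcpt2, the mucosal mast cell chymases, had 22405 and 34049 reads and 11328 and 14115 reads. Ms4a2, the beta chain of the IgE receptor, stood highest among the markers (0.55) and the tryptase gene Tpsb2 lowest (-0.75). Hdc, which makes histamine, had 29230 and 21410 reads (-0.60). The proteases Mcpt1, Mcpt2, Mcpt4, Tpsab1 and Tpsb2 have close paralogs, so their split is uncertain.

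The 1 protease called lower was Prss34, which basophils also make, with 101 reads in WT, 32 in IL4Ra-/- and 265 in IL4RaY709F. In WT cells it was read in 12 of 80, with 40.1% of its reads in 1 cell. The basophil list as a whole had 8 measured members and a median of -0.18, with Prss34 as its only call. The basophil protease gene Mcpt8 was below 50 reads in both libraries. Among 19 granule content genes 16 lay below 0 (median -0.27), where all genes at 1000 reads or more had a median of -0.24. Ext1, a heparan sulfate polymerase gene, was the member called (441 and 245 reads), just at 2-fold, and reached -0.98 with DESeq2 size factors.

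The IgE receptor and its signalling chain held 41 measured genes, none called, with 33 below 0 (median -0.30). Well-read genes lay mostly below 0 in general. Of all genes at 1000 reads or more, 329 of 420 did (median -0.24), and at 200 to under 1000 reads 1365 of 2066 did (median -0.14). The lowest were Pik3cd (-0.98), the PI3 kinase catalytic subunit of leukocytes, Ptpn22 (-0.86), a phosphatase, and Fyn (-0.84), a Src family kinase. Fcer1a, the IgE-binding chain, had 8922 and 8274 reads, and the adaptor Lcp2 had 3897 and 3530. Syk, which binds the receptor's gamma chain, was at -0.10 and Cbl, a ubiquitin ligase, at 0.19.

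Of 12 measured cytokine genes 2 were called higher, Il1b (17 and 97 reads) and Csf2 (25 and 65 reads), each read in 1 WT cell. Il9 was below the read minimum, with 13 reads in WT, 1 in IL4Ra-/- and 73 in IL4RaY709F. In the WT cells 1 cell held 1137 of 1139 Il9 reads. Il4 had 333 and 447 reads, Il13 661 and 857, Il6 820 and 761 and Tnf 708 and 1062 in WT and IL4Ra-/-, all within 2-fold. Osm (-0.86) and Ebi3 (-0.84) were the lowest of the 12. All 7 measured chemokines lay above 0 (median 0.39), and 2 (28.6%) were called higher, Cxcl2 (34 and 86 reads) and Ccl6 (12 and 54 reads). Cxcl2 and Ccl6 were likewise under 50 reads in WT. The reads of all 26 chemokine genes gave a summed ratio of 1.19 (1.15 to 1.23). The abundant ones, Ccl4 (2922 and 3397 reads), Ccl2 (1779 and 2389) and Ccl3 (1491 and 2179), were not called.

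**Figure D3:**
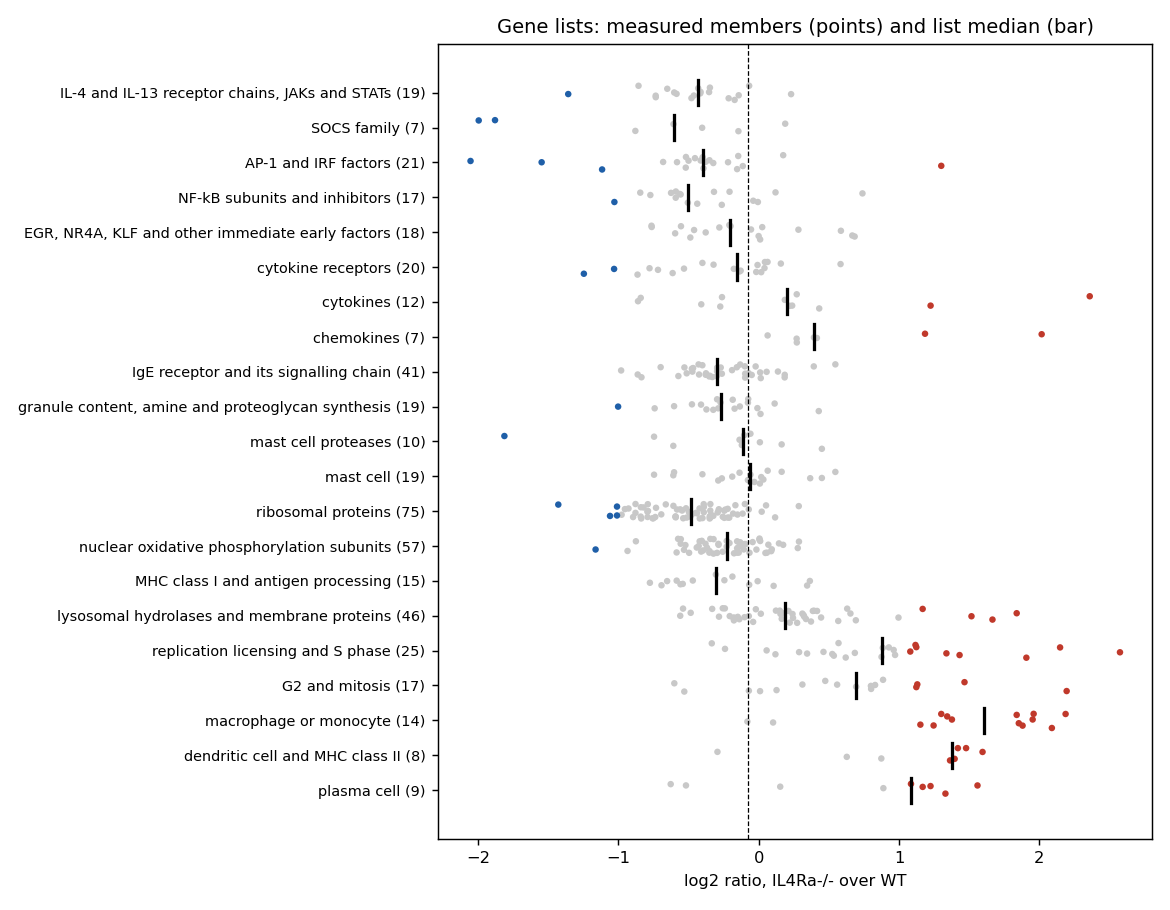
Log2 ratio of IL4Ra-/- to WT (horizontal axis) for the measured members of 21 gene lists, 1 point per gene, red where called higher, blue where called lower and grey otherwise. Black bars are list medians, the dashed line is the median of all measured genes (-0.08), and the number of measured members is in brackets.

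Called genes were grouped by how many WT cells read them. A gene weakly read in WT enters the measured set only where IL4Ra-/- is high, and 94 of the 152 higher genes had under 100 reads, so an excess of higher calls among rarely read genes is in part built into the read minimum. Outside the immunoglobulin genes, 35 measured genes had no WT cell with 10 reads, and of these 11 were called higher and 0 lower. A count of 0 of 80 cells allows a share of up to 4.51% of cells with 10 reads, by counting error within this 1 sample and not as a limit on cells that express the gene. Among 919 genes read in under 10% of cells, 41 were higher and 17 lower, and among 3930 read in 10 to under 50% of cells, 51 were higher and 37 lower. Of 1296 genes read in at least 50% of the cells, 1 was higher and 20 were lower, with a median of -0.17. The 1 higher gene was Neb, which encodes nebulin, a giant muscle protein (274 and 648 reads, 46 cells). Over all 5229 genes read in at least 10% of cells, 54 (1.03%) were called higher and 57 (1.09%) lower. The cells come from another allergy model and held a median of 1209300 reads each, and the classes sort genes, not cells of the bulk pools.

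**Figure D4:**
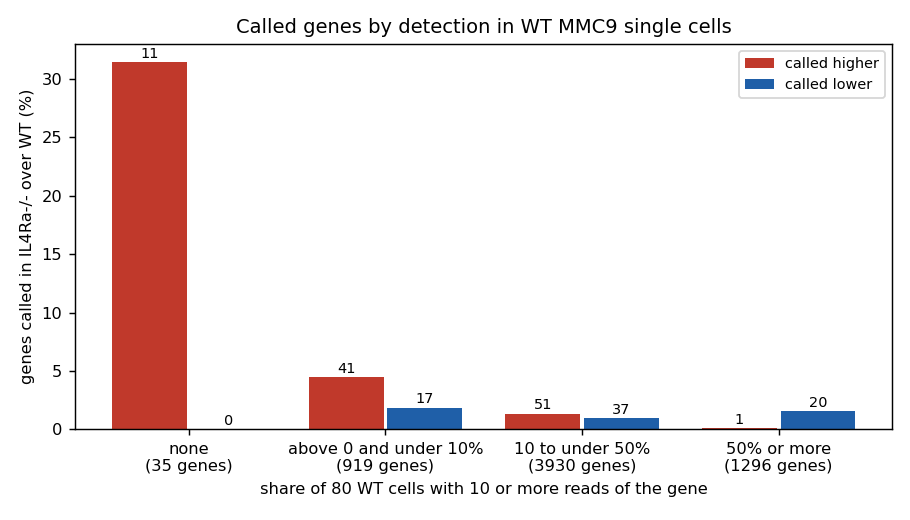
Percentage of measured genes called higher (red) or lower (blue) in IL4Ra-/- over WT, by the share of 80 WT cells with at least 10 reads of the gene. Numbers on the bars are genes called, and immunoglobulin genes are left out. The read minimum favours higher calls among genes that WT rarely reads. The higher share goes from 31.4% in the class with no WT cell to 0.0772% in the class of 50% or more.

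Of 25 measured S phase genes 8 (32%) were called higher in IL4Ra-/- and none lower, against 2.43% and 1.3% of all measured genes. Above 0 lay 23 of the 25, with a median of 0.87. Members low in WT enter only where IL4Ra-/- is high, so the sum over all 62 list genes was taken too: 2752 reads in WT, 4495 in IL4Ra-/- and 2806 in IL4RaY709F, a ratio of 1.47 to WT (1.40 to 1.54). Mcm7, a subunit of the replicative helicase, had 29, 121 and 26 reads, and Mcm6 of the same ring had 53, 149 and 52. IL4Ra-/- was the highest of the 3 libraries for each. Uhrf1, which guides maintenance of DNA methylation, had 14, 69 and 17 reads, and Hells, a chromatin remodeler, 8, 53 and 5. Pcna, the sliding clamp, was read more deeply (310 and 421 reads) and stood at 0.29.

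The mitosis list gave 14 of 17 measured genes above 0, 4 of them called (median 0.69). These calls are 23.5% of the 17, against 2.43% of all measured genes called higher. Top2a had 78 reads in WT, 189 in IL4Ra-/- and 54 in IL4RaY709F, and Kif11, the spindle motor, had 27, 83 and 18. Mki67, the proliferation marker, was short of 2-fold (161 and 331 reads, 0.89). The direction rests on weakly read members, since the 4 with at least 200 reads had a median of -0.03. Over the 69 list genes in the table the reads were 2619 and 3832 (1.31-fold, 1.25 to 1.38). G1 cyclins and CDK inhibitors were level (median -0.03, or 0.11 with total-read scaling). Rbl1, a pocket protein that binds E2F, was the 1 of 18 called (22 and 89 reads), and Cdk4 was at 0.51 and Ccnd2 at -0.15. Top2a was read in 15 of 80 WT cells and Mcm7 in 11, so WT MMC9s hold cells that read them, and which cells of the IL4Ra-/- pool carry these reads was not tested.

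Transcripts that define macrophages were higher in IL4Ra-/-. Of 14 measured macrophage or monocyte markers 12 (85.7%) were called higher and none lower (median 1.61), against 2.43% and 1.3% of all measured genes. Csf1r, the receptor that macrophages need, had 40 reads in WT, 173 in IL4Ra-/- and 16 in IL4RaY709F, Lyz2 had 103, 414 and 40, and Mpeg1 had 71, 336 and 38. IL4Ra-/- was the highest and IL4RaY709F the lowest library for all 3. No WT cell had 10 reads of Lyz2 or Mpeg1, and 7 of the 14 markers were read in no WT cell. The 25 list genes rare in MMC9s, read in under 5% of WT cells, summed to 512 reads in WT and 1819 in IL4Ra-/-, 3.19-fold higher (2.89 to 3.53). All 30 list genes together, with those below the read minimum, had 2586 and 4789 reads (1.66-fold, 1.59 to 1.75). Trem2, Folr2 and Cd209f of the list were at 0 in both libraries. Sirpa (-0.08) and Cx3cr1 (0.10), which many WT MMC9s also read, were not called.

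Antigen presentation genes of MHC class II followed. Of 8 measured genes of the dendritic cell and MHC class II list 5 (62.5%) were called higher (median 1.38). Of all measured genes 2.43% were. Cd74, the invariant chain, had 336 reads in WT, 1041 in IL4Ra-/- and 289 in IL4RaY709F, and H2-Aa had 120, 357 and 104. These genes are not foreign to WT MMC9s, since 14 of 80 cells read Cd74 and 12 read H2-Aa. The split among class II genes is uncertain because of their similarity. The 16 list genes rare in MMC9s summed to 218 and 525 reads, 2.16-fold higher (1.84 to 2.55). The part of macrophages, dendritic cells or other cells in these values was not tested.

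Of 46 measured lysosomal genes 29 lay above 0 (median 0.19), and 4 were called higher, Ctss, Ctsh, Lgmn and Asah1. That is 8.70% of the list, against 2.43% of all measured genes. All 4 were under 50 reads in WT and entered the measured set only through IL4Ra-/-. Ctss, a cathepsin of antigen-presenting cells, had 45 and 179 reads and was read in 2 WT cells. The summed reads of the list gave a ratio of 0.946 (0.930 to 0.962), opposite in sign to the median, as the abundant members Cd63 (-0.48) and Laptm5 (-0.28) lay below 0. The macrophage list above moved in the same library, and the part of such cells in the lysosomal values was not tested.

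Epithelial list genes that MMC9s rarely read had more reads in IL4Ra-/-, while the list as a whole had fewer. All 45 list genes summed to 2723 reads in WT and 2445 in IL4Ra-/- (0.807-fold, 0.764 to 0.853), and the 5 measured had a median of 0.09, with 2 below 0. The 41 list genes of intestinal epithelium rare in MMC9s summed to 88 reads in WT, 524 in IL4Ra-/- and 110 in IL4RaY709F. In IL4Ra-/- they were 5.35-fold higher than in WT (4.26 to 6.79). They held only 88 of the 2723 WT reads, so the sum over the list follows the few members that WT MMC9s themselves read. Pigr, which carries IgA across epithelium, had 3, 51 and 12 reads, and its ratio of 15.3 has a wide interval. Lgals4, a galectin of enterocytes, had 20, 56 and 15. Krt8 (1 and 17 reads), Krt19 (1 and 27) and Fabp1 (2 and 31) were below the read minimum, and Epcam, the surface marker of epithelium, was at 29 in both. Trpm5 and Dclk1, of tuft cells, were at 0 in both libraries.

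Defining T cell genes other than Cd3e were almost unread. The 14 T cell genes rare in MMC9s summed to 28 reads in WT and 61 in IL4Ra-/- (1.96-fold, 1.23 to 3.18). Cd3e had 349 reads in WT and 671 in IL4Ra-/- (0.79) and was read in 30 of 80 WT cells, while Cd3d had 2 and 3 reads, Cd3g 1 and 6 and Trac 1 in each. The 13 neutrophil genes rare in MMC9s summed to 23 and 28 reads, with Elane, Mpo and Ly6g at 0 in both libraries. B cell genes rare in MMC9s summed to 51 and 104 reads (1.83-fold, 1.30 to 2.62), with Ms4a1 at 3 and 14, and Ighm, the IgM constant region, was called higher (72 and 214 reads). Of the 8 measured ILC markers, Il2ra and Calca, a neuropeptide gene (92 and 36 reads), were lower, and the rest lay between -0.61 and 0.22.

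Immunoglobulin transcripts took a larger part of the IL4Ra-/- library. All immunoglobulin genes together had 17082 reads in WT (0.743% of the library), 38016 in IL4Ra-/- (1.63%) and 7906 in IL4RaY709F (0.314%). The summed ratio to WT was 2.0 (1.96 to 2.04) in IL4Ra-/-, 2.25 (2.11 to 2.41) for heavy chain V segments and 2.3 (2.18 to 2.43) for kappa V segments. Of 66 measured genes 48 (72.7%) were called higher and 7 (10.6%) lower, against 2.43% and 1.3% of all measured genes. They make up 48 of the 152 higher genes of the whole comparison. Igkc, the kappa constant region, had 4610 reads in WT and 11526 in IL4Ra-/-, and Jchain, which joins IgA and IgM, had 1851 and 4811. Igha, the IgA constant region, had 8453 and 17406 (0.89). Of 80 WT cells, 20 read Igkc, 17 read Jchain and 27 read Igha. The cell with the most reads of the gene held 86.8% of Igkc reads and 78.9% of Jchain reads. The plasma cell list, which holds these genes, had 5 of 9 measured members (55.6%) called higher, against 2.43% of all measured genes. Its 13 genes rare in MMC9s summed to 696 and 866 reads (1.12-fold, 1.01 to 1.24). Iglc1, an immunoglobulin constant region, alone held 497 and 358 of these reads and lay below 0 (-0.63). Ighg1 (18 and 59 reads), Iglc2 (25 and 59) and Txndc5 (89 and 249), also among the 13, were called higher. The part of plasma cells in these values was not tested.

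V segments did not move as a block, and a segment enters the measured set where either library holds it. Igkv8-24 had 5 reads in WT and 245 in IL4Ra-/-, and Igkv12-44 had 26 and 188. In the other direction Igkv17-127 went from 140 to 36 reads, Igkv17-121 from 152 to 46 and Igkv6-23 from 171 to 62. The V segment with the most reads held 6.95% of V reads in WT (Iglv1) and 5.50% in IL4Ra-/- (Igkv10-96). Segments with at least 10 reads numbered 76 in WT, 126 in IL4Ra-/- and 51 in IL4RaY709F, at 3381, 8289 and 1692 V reads. V segments share sequence, so their split is uncertain. Igkv17-127, Igkv17-121, Igkv6-23 and the segment counts were chosen after their values were seen.

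**Figure D5:**
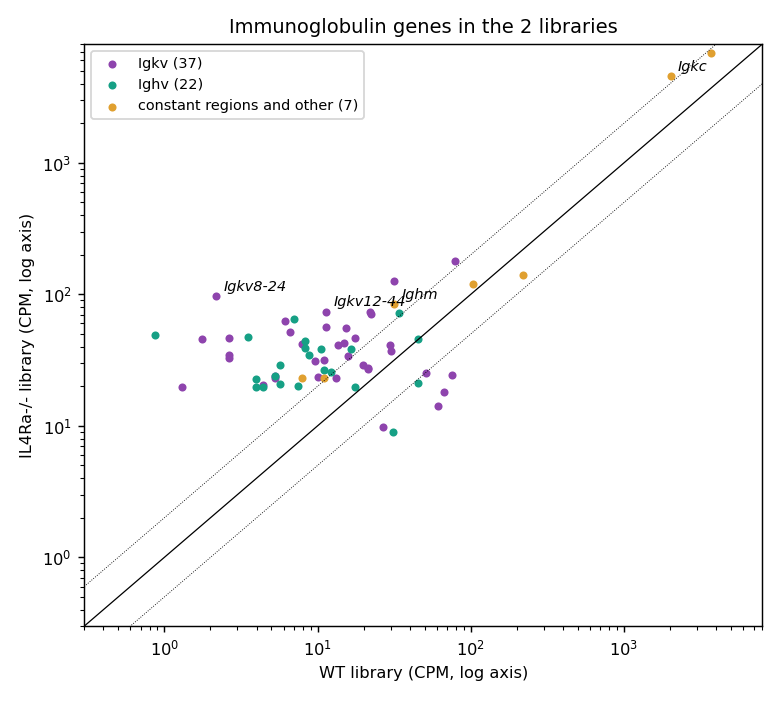
Level of the 66 measured immunoglobulin genes in WT (horizontal) and IL4Ra-/- (vertical), both in CPM on log axes, 1 point per gene. The solid line marks equal levels and dotted lines 2-fold; 58 points lie above the line and 8 below.

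Several higher genes fit none of the lists of other cell types. H19, an imprinted noncoding RNA, had 90 reads in WT, 318 in IL4Ra-/- and 430 in IL4RaY709F, so both mutant libraries were above WT. B3galt5, a galactosyltransferase gene, had 141, 326 and 104 reads and was read in 18 WT cells. Fam49b, a RAC1 regulator, had 94, 213 and 151, and Vamp7, a vesicle SNARE annotated on an unplaced scaffold, had 24, 71 and 31. Xist, expressed from the inactive X chromosome, had 2650 reads in WT and 3714 in IL4Ra-/- (0.33). The Y-linked genes Ddx3y (4 and 16 reads) and Eif2s3y (1 and 8) had few reads in either, while 31 and 14 of the 80 WT cells read them.

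Of the other lists, several held members on both sides with medians near that of all genes. Cholesterol synthesis (22 measured, median 0.02), interferon response (18, 0.00), eicosanoid synthesis (10, -0.11) and amino acid transport and nucleotide synthesis (22, -0.01) had no called member, and the last 2 turn to 0.03 and 0.13 with total-read scaling. The unfolded protein response had none either, with 22 of 32 above 0 (median 0.16) and Hsp90b1, the ER chaperone GRP94, at 0.75, whereas its summed reads gave 0.988 (0.970 to 1.01). Mast cell surface receptors had 1 call of 31, C3ar1, the receptor for complement C3a (21 and 75 reads, 4 WT cells), and a median of 0.01. Integrins had 1 of 16, Itgax, a dendritic cell integrin (log2 1.36), and the TNF superfamily 1 of 6, Tnfrsf13b, the receptor TACI, just past 2-fold higher. Haematopoietic transcription factors had 1 call of 25, Zfpm1, a GATA cofactor (87 and 45 reads, -0.97 with total-read scaling), with Gata2 at -0.19 and Mitf at -0.03. Of all measured genes 3.73% were called. The shares of the surface receptors (3.23%) and the transcription factors (4%) were close to that, and each of these 4 lists rests on 1 gene.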

How the data were processed

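Per the submitters' processing notes, reads were processed with HISAT and with featureCounts of Subread 2.0.0, and the builds mm9 and GRCm38 are named without roles. The deposited table holds raw gene counts as whole numbers, with no normalization by the authors. Strand setting and the treatment of reads that fit several places were not given in the sources used here. Of 55471 genes, 55230 were found in GENCODE M21 (GRCm38) and 54937 had the same start and end there, so coordinates are GRCm38. Without strand, a gene and its antisense partner cannot be told apart.

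Counts were scaled with TMM (edgeR 4.0.16) over the 3 bulk libraries. Ratios of 2 libraries carry exact conditional binomial (Clopper-Pearson) 95% intervals (scipy 1.17.1). No model was fitted and no p-value computed, since each genotype had 1 library. Reads are not independent molecules, so intervals cover counting error only. A gene was called at 50 or more reads in the larger library, 2-fold and an interval without 1. The scripts were tested on simulated data.

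At minimums of 10000 reads and 500 genes, 80 of 81 cells were kept, with 163596 to 2210211 reads. A gene counted as read at 10 reads in a cell. Promoters came from RefSeq (GRCm38.p6): 4935 of 6245 measured symbols matched.

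The members, lists and naming rule were chosen with earlier results of these data known. The text names Il4ra with its neighbours and a fixed set of IL-4, cytokine and mast cell genes. It also names the 15 highest and 15 lowest called genes with 200 or more reads, in all and among genes read in 10% of cells. From each list it names up to 6 called members, or 2 members where none was called, and the 6 called immunoglobulin genes with most reads. Other genes given with values were chosen after their values were seen. Alternatives covered scaling (total reads, DESeq2 1.42.0 size factors, TMM over 2 libraries, mast cell list), read minimum, fold, interval, immunoglobulin genes and cell detection. A few genes are not reported here.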

Additional observations from a re-analysis of the deposited data

How the results depend on the processing

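No paired analysis was possible because each genotype had 1 library and the result comes from no test. The counts of 152 higher and 81 lower genes follow the read minimum and the fold: 630 and 267 with no minimum, 420 and 167 at 20 reads, 18 and 24 at 200 reads, 407 and 553 at 1.5-fold and 60 and 12 at 3-fold. Total-read scaling left 45 lower genes beside 207 higher, so the higher share went from 65.2% to 82.1% of calls, and 197 of the 233 calls were kept. Restriction to genes read in 10% or more of WT cells left 54 higher genes. With 100 reads instead of 10 as the mark in a cell, 29 higher and 30 lower genes were left of 54 and 57. DESeq2 size factors kept 222 of the calls, and TMM over 2 libraries gave the same values as over 3.

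List medians near 0 turned sign. With total-read scaling these were mast cell proteases (0.022), integrins (0.029), DUSP and Sprouty genes (0.094), G1 cyclins (0.109), heat shock (0.037), glycolysis (0.059), the TGF-beta pathway (0.039) and exocytosis (0.036). With the mast cell median set to 0 these were DUSP genes (0.019) and G1 cyclins (0.034), the latter also at 20 reads (0.042). At 200 reads these were cytokines (-0.038), the TNF superfamily (-0.371), serpins (-0.154) and mitosis (-0.030). The cause was not tested beyond the construction of these settings, which shift every ratio or drop members. Of 131 named genes with reads, 10 lost the call with total-read scaling, 3 with DESeq2 size factors and 5 with the mast cell median, and none was reversed. Depth limits the higher genes most: 94 of the 152 had under 100 reads.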
